A study of Rattus norvegicus with 12 samples.

Results

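The genes described here are 5 cadherins, Cdh1, Cdh2, Cdh6, Cdh11 and Cdh16, followed through rat kidney development and in a kidney tissue built in culture. Members were all probe sets whose single gene symbol in the platform annotation was one of these names, which gave 10 of the 31042 probe sets on the array, 8 of them bright enough to be tested. The kidney groups were embryonic day 13 (3 arrays, E13), embryonic day 18 (4 arrays, E18) and week 4 of age (3 arrays, Wk4). A further 2 arrays held recombined tissue, for which non-branched UBs formed in vitro had been put together with MM and kept in culture for 6 days. UB and MM are the usual abbreviations for the ureteric bud and the metanephric mesenchyme, which together build the kidney. Strain, sex and pooling are not described in the labels, nor whether the replicates are separate animals or cultures; the p-values therefore reflect variation among these arrays, part of which may be technical.

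Cadherins are membrane proteins that bind their own kind on the next cell through calcium-dependent repeats, and that classical cadherins link to the actin skeleton through catenins. In the kidney the mesenchyme turns into nephron epithelium, and cadherin use changes along that path. Cdh1 encodes E-cadherin, the cadherin of the ureteric bud, the collecting duct and distal tubules, and Cdh16 encodes Ksp-cadherin, a kidney-enriched cadherin of tubule epithelium whose short cytoplasmic tail lacks the catenin-binding part. Cdh6 encodes K-cadherin, known from the early nephron and the forming proximal tubule. Cdh2 encodes N-cadherin, found in mesenchyme and in proximal tubule, and Cdh11 encodes OB-cadherin, a cadherin of mesenchymal cells.

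A level below is the deposited signal in arbitrary units, as a mean ± SD where a group is summarised. Differences are given ± SE as log2(signal + 271), 271 being the 25th percentile of all values, and this constant makes the change of a dim probe set look smaller than it was. A probe set was called, and is said to have risen or fallen, when its limma adjusted p was under 0.05 and its change was at least 3-fold, the fold that the study's design names. Each gene is represented by its brightest probe set, and the others are described after it.

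The median signal of an array ranged from 799 to 1020, and precision is limited by how few arrays each group has. The labelled tissue carried kidney markers: the summed signal of 7 proximal tubule genes lay between 356923 and 404865 at Wk4 and between 2232 and 2900 at E13. The embryonic arrays fell into 2 sets, known from an earlier analysis of these data: set 1 held E13 replicate 1 with E18 replicates 1 to 3, and set 2 held E13 replicates 2 and 3 with E18 replicate 4. The deviations of arrays from their stage mean correlated across stages at 0.25 to 0.41 within a set and at -0.60 to -0.15 between sets. As deviations from a stage mean cancel out, the negative values follow in part from the positive ones. The sets come from these same data, so these values describe them and are no test. Values within each set are given beside the step from E13 to E18 for the brightest probe set of each member. No label names these sets.

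The epithelial cadherins Cdh1 and Cdh16 rose between E13 and E18, and the mesenchymal cadherin Cdh11 fell between E18 and Wk4. Cdh1 (1386947_at) stood at 2770.2, 2805 and 2360.0 on the E13 arrays, at 13411, 14309, 14758 and 10617 on the E18 arrays, at 8381, 9598 and 9179 on the Wk4 arrays and at 1686 and 3335 on the recombined arrays. Every E18 array was above every Wk4 array, and these were all above E13 and recombined tissue, whose ranges overlapped. Cdh1 thus had its highest mean at E18, 13274 ± 1857 (SD, n = 4), followed by Wk4 with 9053 ± 618 (SD, n = 3), E13 with 2645 ± 247 (SD, n = 3) and recombined tissue with 2510.2 ± 1166 (SD, n = 2).

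Cdh1 rose from E13 to E18 by 2.21 ± 0.18 (limma adjusted p = 7.11e-07). Within set 1 the difference was 2.25 and within set 2 it was 1.94. From E18 to Wk4 its difference was -0.53 ± 0.18, with an adjusted p of 0.021 but under 3-fold, so it was not called. Against E13 the Wk4 kidney was higher by 1.68 ± 0.19 (adjusted p = 2.45e-06). That value lies close to the 3-fold line of 1.58, and with the embryonic set as a covariate and the Wk4 arrays placed in set 1 it was 1.51 and no longer called.

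Cdh16 (1390822_at) had the largest log2 difference between stages of the members. Its signal was 724, 808 and 1523 at E13, then 7522, 7743, 8811 and 6483 at E18, and 38564, 37141 and 37579 at Wk4. The recombined arrays read 912 and 1269. Stage ranges did not touch one another, while recombined tissue overlapped E13 alone. Cdh16 rose by 2.66 ± 0.18 from E13 to E18 (limma adjusted p = 1.44e-07) and again by 2.27 ± 0.18 from E18 to Wk4 (adjusted p = 8.33e-08). Mean signal at Wk4, 37761 ± 729 (SD, n = 3), was 37.1 times the E13 mean of 1018 ± 439 (SD, n = 3), a difference of 4.93 ± 0.19. Within set 1 the step from E13 to E18 was 3.06 and within set 2 it was 2.28.

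**Figure D1:**
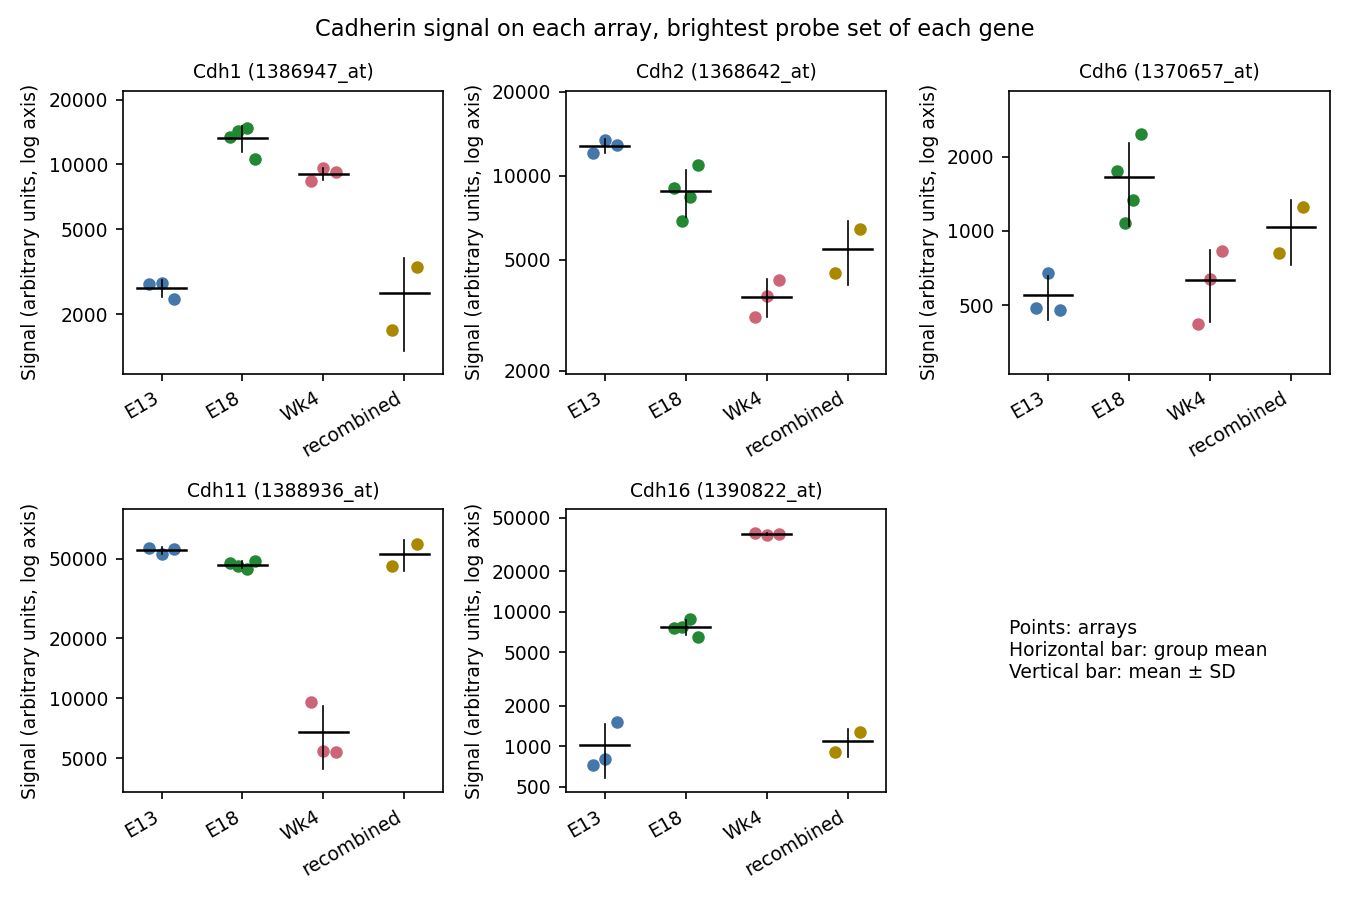
Signal (log axis, arbitrary units) of the brightest probe set of each cadherin on every array, by group; points are arrays, horizontal bars are group means and vertical bars the mean ± SD. Cdh16 climbs from a mean of 1018 at E13 to 37761 at Wk4, Cdh11 stays between 44509 and 59011 in all groups except Wk4, and Cdh1 in recombined tissue lies at 1686 and 3335.

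Cdh11 (1388936_at) stood at 56489, 52748 and 55590.1 at E13, at 47241, 45729.7, 44509 and 48676 at E18, and at 46068 and 59011 in recombined tissue. At Wk4 its arrays read 9541, 5445 and 5392. All Wk4 arrays lay far below every other array, and the recombined range held that of E13 and overlapped that of E18. From E13 to E18 the difference was -0.24 ± 0.16 and was not called (limma adjusted p = 0.337, 95% interval -0.58 to 0.10), although the ranges of these stages did not overlap. Within set 1 this difference was -0.30 and within set 2 it was -0.15. From E18 to Wk4 Cdh11 fell by 2.78 ± 0.16 on the log2 scale (adjusted p = 2.54e-09), and its difference from E13 to Wk4 was -3.02 ± 0.17 (adjusted p = 1.29e-09). In signal, the Wk4 mean of 6793 was 0.146 times the E18 mean.

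Cdh2 (1368642_at) went down in steps. It stood at 12069.6, 13491 and 12870.3 at E13, at 9038, 6875, 8382 and 10925 at E18, and at 3109, 3704 and 4241 at Wk4. Recombined tissue gave 4462 and 6448. None of the group ranges overlapped, in the order E13, E18, recombined tissue and Wk4. The step from E13 to E18 was -0.54 ± 0.16 (limma adjusted p = 0.0285) and the step from E18 to Wk4 was -1.19 ± 0.16 (adjusted p = 1.97e-05), both under 3-fold and so not called. Over the whole interval, from E13 to Wk4, Cdh2 fell by 1.73 ± 0.17 on the log2 scale (adjusted p = 6.04e-07), or by 1.54 and no longer called with the set as a covariate and Wk4 placed in set 1. Within set 1 the E18 minus E13 difference was -0.57 and within set 2 it was -0.26.

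Cdh6 (1370657_at) followed another course, with its highest mean at E18. Its signal was 489, 676 and 478 at E13, 1749.6, 1077, 1332 and 2467 at E18, 422, 641 and 828 at Wk4, and 817 and 1249 in recombined tissue. E18 did not overlap E13 or Wk4, while the recombined range overlapped both E18 and Wk4, and Wk4 overlapped E13. Since 1 of 3 E13 arrays and 2 of 3 Wk4 arrays were above the 40th percentile of their array for this probe set, its low values are dim. The E18 mean of 1656 ± 607 (SD, n = 4) was 3.02 times the E13 mean of 548 ± 111 (SD, n = 3). On the log2(signal + 271) scale the difference was 1.19 ± 0.25 (limma adjusted p = 0.00304), under 3-fold and not called, with 1.10 within set 1 and 1.70 within set 2. The difference from E18 to Wk4 was -1.07 ± 0.25 (adjusted p = 0.00185), also not called, and from E13 to Wk4 it was 0.12 ± 0.26 (adjusted p = 0.714).

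Counted over the members, 2 of 5 rose from E13 to E18, Cdh1 and Cdh16, and 0 fell, beside 2.63% of all genes called higher and 0.369% called lower. Without any single array this count stayed at 2. From E18 to Wk4 Cdh16 rose and Cdh11 fell, 1 of 5 in each direction, where 7.06% of genes were called higher and 6.65% lower. Between E13 and Wk4, 2 rose (Cdh1, Cdh16) and 2 fell (Cdh2, Cdh11), where 11.8% of genes were called higher and 9.42% lower. The median difference of the 5 members was 1.19, -1.07 and 0.12 for these comparisons, and that of all 11920 genes was 0.03, -0.15 and -0.07. The comparisons share arrays, so their values are set side by side and not counted as separate evidence.

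**Figure D2:**
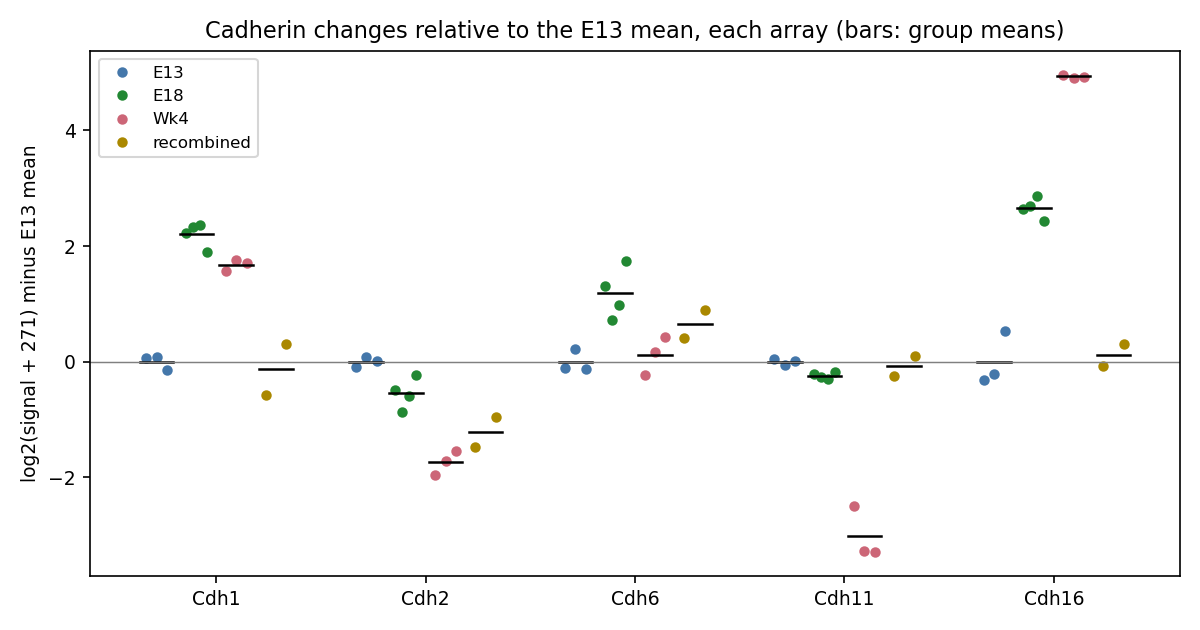
Each array's log2(signal + 271) minus the mean of the E13 arrays, for the brightest probe set of each cadherin; points are arrays coloured by group, and bars are group means. Cdh1 and Cdh16 are above 0 at E18 and Wk4, Cdh2 and Cdh11 are below it at Wk4, and recombined tissue stays near the E13 level for Cdh1, Cdh11 and Cdh16.

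A change in the balance of cadherins within a sample can be read from the log2 ratio of 2 probe sets on an array, set to 0 at the E13 mean, which shows unequal change and says nothing of which protein is more abundant. The ratio of Cdh1 to Cdh2 was between -0.15 and 0.15 on the E13 arrays, between 2.13 and 3.20 on the E18 arrays and between 3.23 and 3.52 on the Wk4 arrays. Recombined tissue lay between these, at 0.89 and 1.27. For Cdh1 against Cdh11 the E18 arrays lay between 2.08 and 2.67 and the Wk4 arrays between 4.06 and 5.03, whereas the recombined arrays read -0.32 and 0.21, on either side of the E13 mean. Both ratios were thus higher on every later kidney array than at E13, and in recombined tissue only that with Cdh2 was higher on both arrays. The ratio of Cdh16 to Cdh6 lay between -0.42 and 0.65 at E13, between 0.69 and 1.96 at E18, between 4.49 and 5.20 at Wk4, and at -0.49 and -0.59 in recombined tissue. These ratios are given as a description, with no test.

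Recombined tissue was set against E13 kidney to ask how far its cadherins had moved from the earliest stage measured. None of the 5 members was called by limma in either direction (1.04% of genes were called lower and 4.97% higher), while 2 of the 5, Cdh2 and Cdh6, had an unadjusted p under 0.05 and 1, Cdh2, an adjusted one. Cdh2 had the largest difference of the members, and value was -1.21 ± 0.19 (limma adjusted p = 0.000275), with 5455 ± 1404 (SD, n = 2) against 12810.4 ± 713 (SD, n = 3). Its ranges did not overlap, and the change was under 3-fold. Cdh1 differed by -0.13 ± 0.21 (adjusted p = 0.692), with a 95% interval from -0.59 to 0.33. Without recombined replicate 1 this difference was 0.31, and without replicate 2 it was -0.57. Cdh16 differed by 0.12 ± 0.22 (interval -0.35 to 0.58) and Cdh11 by -0.07 ± 0.19 (interval -0.48 to 0.33), and the sign of each turned under another normalization. Cdh6 was at 1033 ± 305 (SD, n = 2), a difference of 0.66 ± 0.29 (adjusted p = 0.107), and both of its recombined arrays were above all 3 E13 arrays. For Cdh1, Cdh11 and Cdh16 the recombined range overlapped that of E13.

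Against E18 kidney, Cdh1 in recombined tissue was lower by a difference of -2.34 ± 0.20 (limma adjusted p = 1.4e-06) and Cdh16 by -2.54 ± 0.21 (adjusted p = 7.54e-07). These were the 2 members called lower of 5, with 0 called higher, where 2.35% of all genes were called lower and 3.06% higher. Cdh2 differed by -0.67 ± 0.18 (adjusted p = 0.0139), Cdh6 by -0.53 ± 0.28 (adjusted p = 0.177) and Cdh11 by 0.16 ± 0.18 (adjusted p = 0.545), none of them called. Without recombined replicate 1 the Cdh1 difference was -1.90 and it stayed called.

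Against Wk4 kidney, 2 members were lower in recombined tissue and 1 was higher, where 9.26% of genes were called lower and 8.79% higher. Cdh16 was lower by -4.82 ± 0.22 (limma adjusted p = 2.53e-10), at 0.0289 times the Wk4 signal, and Cdh1 by -1.81 ± 0.21 (adjusted p = 5.52e-06). The Cdh1 call rested on recombined replicate 1, since without it the difference was -1.37, under 3-fold. Cdh11 was higher by 2.94 ± 0.19 (adjusted p = 1.05e-08), at 7.73 times the Wk4 signal. Cdh2 differed by 0.52 ± 0.19 (adjusted p = 0.0345) and Cdh6 by 0.54 ± 0.29 (adjusted p = 0.139), neither of them called.

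Whole tissue was measured, so fewer cells of a type and less RNA per cell cannot be told apart. Markers of epithelium and of mesenchyme also differed between the groups, in part with the members and in part not. The summed signal of 7 epithelial genes, Cdh1 among them, lay between 16051 and 17764 at E13, between 52921 and 64447 at E18, between 113582 and 126720 at Wk4 and between 12587 and 17906 in recombined tissue. Against E13, 4 of these 7 rose at E18 and 5 at Wk4, while in recombined tissue limma called 0. There 2 had an adjusted p under 0.05, in opposite directions. Krt7 was higher (1.47 ± 0.24, limma adjusted p = 0.000345) and Epcam lower (-0.56 ± 0.15, adjusted p = 0.00839), and the list's median difference was -0.13. Epcam, an epithelial adhesion molecule, averaged 6391 at E13, 19065 at E18, 65035 at Wk4 and 4272 in recombined tissue. Krt7, a keratin gene, averaged 277, 4742, 16915 and 1176 in the same order, and was under the 40th percentile on every E13 array. The 10 measured mesenchyme and stroma genes summed to between 180095 and 224151 at E13, 257111 and 293877 at E18, 104381 and 148743 at Wk4, and 571373 and 700446 in recombined tissue. Bright collagen genes weigh most in this sum, as Col1a1, Col1a2 and Col3a1 averaged 138645, 113636 and 131714 in recombined tissue. From E13 to E18, 2 of the 10 rose and 1 fell, with a median difference of 0.27. From E13 to Wk4, where Cdh11 had -3.02, 4 of the 10 fell and 1 rose, with -2.51 for Vim, an intermediate filament gene of mesenchyme, and 3.64 for Dcn, a matrix proteoglycan gene. Of the mesenchyme and stroma genes 5 rose and 1 fell in recombined tissue against E13, where Cdh11 had -0.07 and Cdh2 -1.21. Leukocyte markers summed to between 4433 and 6157 at E13 and between 94751 and 162068 in recombined tissue, where 7 of 7 rose. The part of these cell types in the cadherin values was not tested.

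The other probe sets of a gene tell how far a result rests on the probes chosen. A further Cdh2 probe set (1387259_at) read 7743 ± 242 (SD, n = 3) at E13, 5936 ± 1181 (SD, n = 4) at E18, 3107 ± 165 (SD, n = 3) at Wk4 and 2865 ± 549 (SD, n = 2) in recombined tissue. Its difference from E13 to Wk4 was -1.25 ± 0.15 (limma adjusted p = 5.41e-06), which was not called, and in recombined tissue it was -1.36 ± 0.17 (adjusted p = 3.78e-05). Here recombined tissue overlapped Wk4, which it did not for the brightest probe set. So both bright Cdh2 probe sets were lower in recombined tissue than at E13 with an adjusted p under 0.05, and they placed it differently against Wk4 (-0.12 ± 0.17, adjusted p = 0.593, against 0.52 ± 0.19).

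For Cdh11, a dimmer probe set (1391146_at) averaged 2094 ± 242 (SD, n = 3) at E13, 1699 ± 234 (SD, n = 4) at E18, 394 ± 261 (SD, n = 3) at Wk4 and 1779 ± 203 (SD, n = 2) in recombined tissue. From E18 to Wk4 it fell by 1.63 ± 0.22 on the log2 scale (limma adjusted p = 2.01e-05), and the change was under 3-fold without Wk4 replicate 3 (-1.35) or E18 replicate 4 (-1.58). The remaining Cdh11 probe set (1391088_at) lay between 255 and 809.6 on all arrays and had the opposite sign, 0.42 ± 0.26 (adjusted p = 0.183). When the 3 probe sets were averaged, the Cdh11 step from E18 to Wk4 was -1.33, with an adjusted p of 1.06e-06 but under 3-fold. A Cdh1 probe set (1386446_at), at 6.15 to 209, and a Cdh2 probe set (1378271_at), at 35.5 to 342, were under the 40th percentile of all 12 arrays and were not tested.

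**Figure D3:**
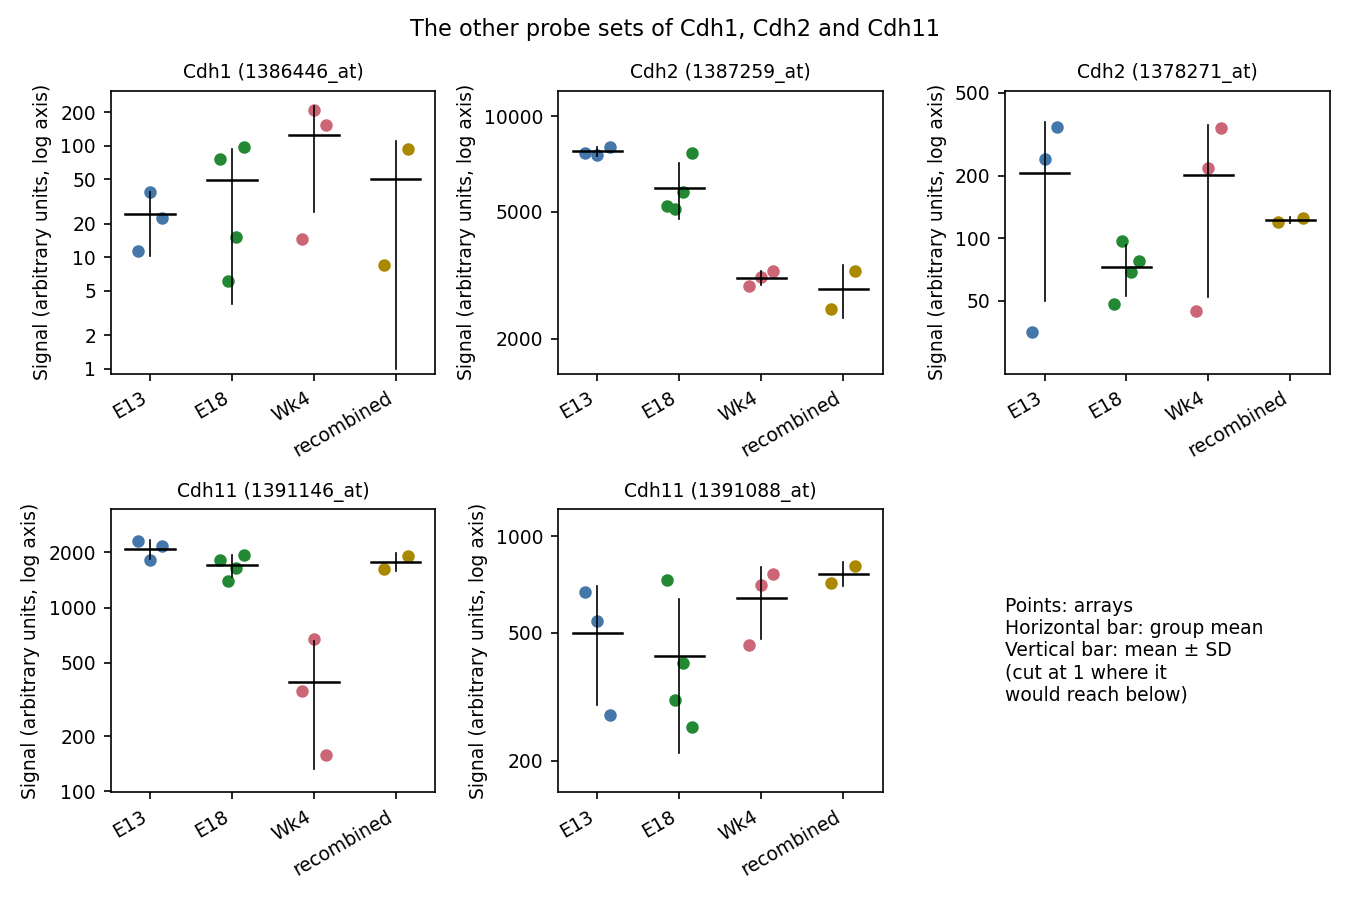
Signal (log axis, arbitrary units) of the 5 probe sets of Cdh1, Cdh2 and Cdh11 that were not the brightest of their gene; points are arrays, horizontal bars group means and vertical bars the mean ± SD. The pair 1387259_at and 1391146_at follow the brightest probe sets of Cdh2 and Cdh11, with Wk4 means of 3107 and 394, and the other 3 stay dim, with no value above 809.6.

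Catenins and junction adaptors were measured for 16 of 18 listed genes. The list holds links from cadherins to the actin skeleton, but also nectins and other junction genes such as Cbll1. From E13 to E18 limma called 0 of 16; 9 had an unadjusted p under 0.05 and 3 an adjusted one, all 3 of them higher at E18. The median difference of the list was 0.16, against 0.03 for all genes. Ctnna1, which encodes alpha-catenin, averaged 43048 at E13, 43000 at E18, 38075 at Wk4 and 39592 in recombined tissue. Ctnnb1, which encodes beta-catenin, averaged 146269, 106958, 113855 and 91804 in the same order; its difference in recombined tissue from E13 was -0.69 ± 0.22 (adjusted p = 0.0257), not called. Jup, which encodes plakoglobin, differed by 0.84 ± 0.19 from E13 to Wk4 (adjusted p = 0.0014), also not called. Across the 6 comparisons 2 calls were made in this list: Ctnnd2, a delta-catenin known best from neurons, fell by 1.82 ± 0.20 on the log2 scale from E13 to Wk4, and Lima1, an actin-binding adaptor, was higher in recombined tissue than at Wk4 by 1.74 ± 0.18. With single arrays left out, the list's count ran from 1 to 3 in each of those comparisons, with 3 and 2 called without Wk4 replicate 1 and E13 replicate 1 for E13 to Wk4, and 3, 2 and 3 without Wk4 replicate 1, Wk4 replicate 2 and recombined replicate 2 for recombined tissue against Wk4.

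Transcription factors known for repressing Cdh1 or driving the epithelial to mesenchymal transition (EMT) were measured for 8 of 11 listed genes. Twist1 averaged 8215 at E13, 1824 at E18, 534 at Wk4 and 2479 in recombined tissue, and from E13 to E18 its difference was -2.01 ± 0.33 (limma adjusted p = 0.000508), the 1 call of 8. Between E13 and Wk4, Twist1 (-3.44 ± 0.35) and Prrx1 (-2.32 ± 0.22) were called lower and 0 higher, or 4 lower without E13 replicate 2. Zeb2 was the 1 gene of the list called from E18 to Wk4, with -1.80 ± 0.16. Without Wk4 replicate 2, 2 were called lower. In both comparisons with Wk4 all 8 genes were lower at Wk4 with a limma adjusted p under 0.05, most of them under 3-fold. The list's median difference was -0.9975 from E18 to Wk4 and -1.3229 from E13 to Wk4. Snai1 and Zeb1, direct repressors of Cdh1 in cell lines, differed by 0.10 ± 0.24 and -0.19 ± 0.10 from E13 to E18, the step in which Cdh1 rose. Neither passed the test (adjusted p = 0.819 and 0.196), and Zeb2, a further repressor of Cdh1, differed by 0.66 ± 0.16 (adjusted p = 0.00803), higher at E18 but under 3-fold and not called.

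In recombined tissue against E13, 4 of the 8 EMT list genes had a limma adjusted p under 0.05, in both directions. Foxc2 (-1.47 ± 0.22, adjusted p = 0.000138) was lower there, and Twist2 (1.17 ± 0.35, adjusted p = 0.0196) and Zeb2 (0.78 ± 0.19, adjusted p = 0.00562) were higher. These were under 3-fold, and the list gave 1 gene called lower, Twist1 (-1.67 ± 0.39, limma adjusted p = 0.00489), and 0 called higher. This call was lost without recombined replicate 1 or E13 replicate 1. Against E18, Twist2 (1.71 ± 0.33) and Prrx1 (1.63 ± 0.23) were higher, with 1 of them called without recombined replicate 1, E18 replicate 2 or E18 replicate 3. Against Wk4, 4 of 8 were higher and 0 lower, namely Twist2 (2.74 ± 0.35), Prrx1 (2.47 ± 0.25), Zeb2 (1.92 ± 0.19) and Twist1 (1.78 ± 0.39). The list's median difference from Wk4 was 1.46, against 0.14 for all genes.

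Tight junction genes, whose products seal epithelia at the apex of the lateral membrane, were listed with polarity genes, and 17 of 18 were measured. From E13 to E18, 7 rose and 0 fell, with Cldn8 (2.34 ± 0.12, limma adjusted p = 6.89e-09) and Cldn2 (2.32 ± 0.17, adjusted p = 3.39e-07) ahead, claudins of the distal nephron and of the proximal tubule. With 4 times the pseudocount 1 of the 17 was called in that step, and with none 12 were. Between E13 and Wk4, 10 rose and 1 fell, Cldn6, a claudin of immature epithelium. In recombined tissue 0 were higher than at E13 and Cldn6 was lower (-1.81 ± 0.28, adjusted p = 0.000212). Against E18, 8 of 17 were lower and 0 higher, or 5 lower without recombined replicate 1. Against Wk4, 11 were lower and 0 higher, or 7 lower without recombined replicate 1. The medians of the list were 1.54 from E13 to E18, 1.95 from E13 to Wk4 and -0.12 in recombined tissue against E13.

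**Figure D4:**
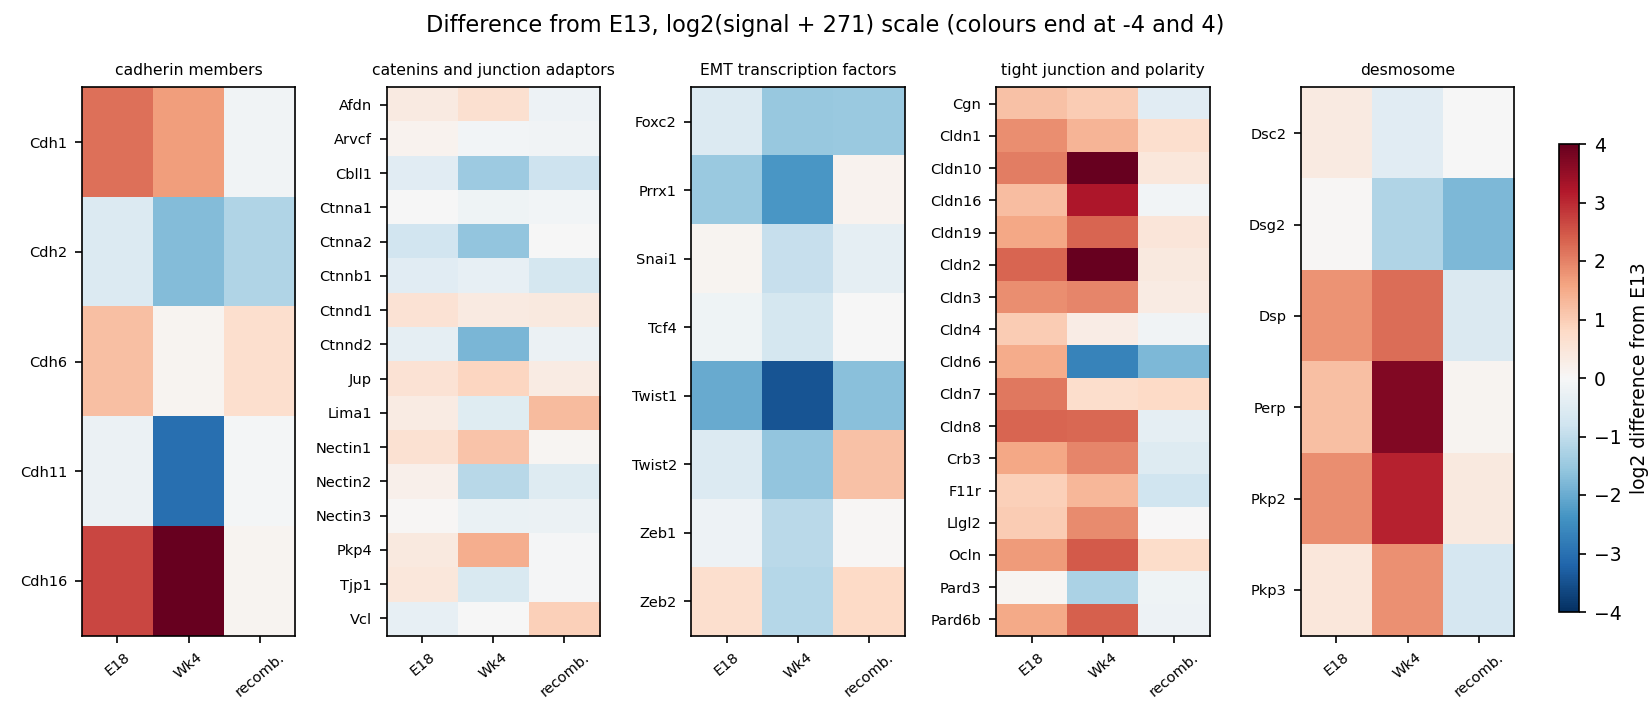
Difference from E13 on the log2(signal + 271) scale for the 5 cadherins and for 4 lists of junction genes and transcription factors, with a column each for E18, Wk4 and recombined tissue; red is higher than E13 and blue is lower, with colours ending at -4 and 4. Cdh1, Cdh16 and most tight junction genes are red at E18 and Wk4 and pale in recombined tissue, while the darkest catenin or adaptor is Ctnnd2 at Wk4 (-1.82).

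The genes whose pattern over the 12 arrays was most like that of each member were found by Pearson's r of log2 values. These arrays share 4 groups, so r mostly reflects the group means, and genes are named as a description. For Cdh1 they were Pou3f3 (0.99), a transcription factor of the nephron, Sh2d4a (0.98) and Myo5c (0.98), an unconventional myosin of epithelia. For Cdh16 they were Degs2, Defb1, an epithelial defensin, and Trpv4, a cation channel of tubule cells, with r of 0.997, 0.994 and 0.994. For Cdh11 they were Nsg1, Ndn and Igf2, an imprinted growth factor, with r of 0.997, 0.995 and 0.994; Igf2 averaged 96322 at E13, 86140 at E18, 1613 at Wk4 and 89989 in recombined tissue. Cdh2 was nearest to Nudc, Riox2 and Ldlrad3, with r of 0.99, 0.99 and 0.98. Cdh6 had looser partners, Prkaa1, Cbr3 and Msl3, with r of 0.90. By Spearman's rho the 3 nearest genes were shared in 1 case for Cdh16, Trpv4, and in 0 for the other members.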

How the data were processed

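Biotinylated cRNA was made from total RNA and hybridised to Affymetrix arrays, per the labels' protocols. Per the submitters' processing notes the authors used GCOS, whose deposited output is a linear intensity for each probe set; the software's version was not given in the sources used here. Each array's mean without its lowest and highest 2% was between 2500.6 and 2500.9, so each array had been scaled, which hides any difference in RNA content per cell. Detection calls were not used. Identical values were found in 0 pairs of arrays.

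Control probe sets (57) were removed. Values were used as log2(signal + 271). A probe set was kept when 2 or more arrays had it over that array's 40th percentile, which held for 22599 of 31042. The platform annotation gave 20826 probe sets 1 symbol, 436 several and 9780 none, and symbols were updated by gene ID. A gene's main probe set was the kept one with the highest mean. Array medians spanned 0.27 on the log2 scale, so no further normalization was applied. All 12 arrays entered 1 limma 3.58.1 fit (R 4.3.3, lmFit, eBayes with intensity trend, 8 residual degrees of freedom), two-sided, with p-values adjusted by Benjamini-Hochberg across all kept probe sets. Simulated arrays had changes placed in the brighter part of the probe sets. Of those changed by 4-fold, 94% were called for E18 against E13 (21342 tested) and 84% for recombined tissue against E13 (21317 tested). Of those changed by 2-fold, 0% and 2% were called, which the 3-fold rule largely fixes in advance. The simulated noise was independent between arrays and lacked the embryonic sets, so recovery in the real data may differ.

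The members, the lists of catenins and adaptors, other cadherins, EMT factors, epithelial factors, tight junction, desmosome and cell type marker genes, and the tests were chosen with earlier results of these data known. Named list genes were mostly among the 2 with the largest difference in a comparison, but not all such genes are named. Others are examples picked by hand, such as Snai1, Zeb1, Zeb2, the main catenins, Epcam, Vim, Dcn, Tfcp2l1 and, from E13 to Wk4, Cldn6. The labels' replicate numbers were checked for pairing: over 15 same-numbered pairs of arrays from different groups, deviations from group means correlated between -0.17 and 0.31, with 1 pair above 0.1, so the numbers do not pair the samples. Genome positions are left out because the sources name no build.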

Additional observations from a re-analysis of the deposited data

How the results depend on the processing

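Over the 936 alternative values of the members' differences, 882 kept their direction and side of the threshold, 19 lost a call, 18 gained one and 17 changed sign. All sign changes were in differences that were not called: Cdh11 1391088_at from E13 to E18 (-0.38 to 0.010 with single arrays left out) and from E13 to Wk4 (-0.058 with the embryonic set as a covariate and other groups in set 1), Cdh6 from E13 to Wk4 (-0.034 to 0.30 with single arrays left out, and -0.033 with other groups in set 2, an alternative chosen after seeing the data), and, in recombined tissue against E13, Cdh1 (-0.57 to 0.31 with single arrays left out), Cdh11 (0.15 by quantile normalization, 0.061 averaged over its probe sets, -0.25 to 0.10 with single arrays left out) and Cdh16 (-0.046 by quantile normalization, -0.077 by median centring, -0.073 to 0.38 with single arrays left out). The same held against E18 for Cdh11 (-0.014 to 0.34 with single arrays left out) and its probe set 1391146_at (-0.047 by median centring, -0.040 to 0.16 with single arrays left out), and against Wk4 for Cdh2 1387259_at (-0.30 to 0.063 with single arrays left out). Median centring moved the median of all genes in recombined tissue by -0.19, -0.11 and -0.16 against E13, E18 and Wk4. Where a single recombined array was left, it was assumed to vary like the other groups. The number of members called moved from 2 to 4 for E18 against E13 with no fold minimum. For Wk4 against E18 it moved from 2 to 4 at 2-fold, to 5 with no fold minimum and to 1 with probe sets averaged per gene. For Wk4 against E13 it moved from 4 to 2 with 4 times the pseudocount, 2 with the set as a covariate (other groups in set 1) and 2 with probe sets averaged per gene, and for recombined tissue against E13 from 0 to 1 at 2-fold and 1 with no fold minimum. With single arrays left out it stayed at 2, 2, 4, 0 and 2, and ran from 2 to 3 for recombined tissue against Wk4. The replicate block, the replicate number as a factor, left all 6 member counts as they were (2, 2, 4, 0, 2 and 3); of single probe sets it took the call from Cdh11 1391146_at from E18 to Wk4 (-1.58). Of 756 alternative counts for the gene lists, 635 stayed within 1.5 times. All probe sets called numbered 529, 2529, 4036, 1098, 995 and 3435 in the 6 comparisons. They were 1038, 3990, 1733 and 1594 with no pseudocount where the count moved by over 1.5 times (E18 against E13, Wk4 against E18, recombined tissue against E13 and E18), 188, 1420, 2300, 495, 418 and 1876 with 4 times the pseudocount, 1503, 5772, 7865, 2839, 2551 and 6885 at 2-fold, and 4466, 12368, 13705, 7015, 6372 and 11974 with no fold minimum. The cause of these movements was not tested, apart from the call rules that set them. Signal over background limits Cdh6 and the dim probe sets, and 2 recombined arrays limit what can be said of that tissue.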

Other observations

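Of 17 other cadherin genes looked for, 10 had a named probe set, 4 of these were bright enough to be tested, and the remaining 6 had no signal above 843. Cdh22, a type II cadherin known best from brain, had a lower mean at each later kidney stage, as Cdh2 and Cdh11 did. Its highest mean was in recombined tissue, unlike that of the brightest probe set of any of the 5 genes above. Cdh22 had 2 probe sets and is represented by its main one, with no values given for the other. Its signal was 8848, 6737 and 7478 at E13, then 1305, 2052, 979 and 1242 at E18, and 413, 90.4 and 13.2 at Wk4. Recombined tissue read 18819 and 18718, above every kidney array. The Cdh22 difference from E13 to E18 was -2.29 ± 0.26 (limma adjusted p = 2.05e-05) and from E18 to Wk4 it was -1.97 ± 0.26 (adjusted p = 1.49e-05), both called lower. It was higher in recombined tissue than at E18 by 3.55 ± 0.30 (adjusted p = 9.69e-07) and than at Wk4 by 5.53 ± 0.31, and its difference from E13 was 1.27 ± 0.31 (adjusted p = 0.00649), under 3-fold. Wk4 lay below the 40th percentile on all 3 arrays. Of the rest, Cdh3, which encodes P-cadherin, averaged 3058 at E13 and 1207 at Wk4 (-1.11 ± 0.23, adjusted p = 0.000603, not called), and Cdh13 and Cdh15 were called in 0 of 6 comparisons. Neural marker genes, 2 of them measured, summed to 14136 and 3575 in recombined tissue and to at most 2401 at E13. Their part in the Cdh22 signal was not tested.

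Desmosomal genes, whose cadherins and plaque proteins join keratin filaments between cells, were measured for all 6 listed. Dsp, which encodes desmoplakin, averaged 1840.4 at E13, 7023 at E18, 9710.2 at Wk4 and 1159 in recombined tissue. Dsp (1.80 ± 0.15, limma adjusted p = 1.16e-06) and the plakophilin gene Pkp2 (1.85 ± 0.23) rose from E13 to E18, or 1 of them with the embryonic set as a covariate. Over all alternative settings the list's count in that step ran from 0 to 3, and with single arrays left out it stayed at 2. Perp, a desmosomal membrane protein gene, averaged 11655 at Wk4 and 646 at E13 (3.71 ± 0.17). Dsg2, which encodes a desmosomal cadherin, stood at 2872 ± 763 (SD, n = 3) at E13 and at 653 ± 353 (SD, n = 2) in recombined tissue (-1.79 ± 0.26, adjusted p = 0.00012), a call lost without recombined replicate 1. Among 12 measured genes of the epithelial factor list, 4 rose from E13 to E18. In recombined tissue against E13 limma called 0, though 3 had an adjusted p under 0.05. Emx2 (1.32 ± 0.17) and Tfcp2l1 (0.80 ± 0.27) were higher there and Esrp1 (-1.11 ± 0.21) was lower, all under 3-fold. The number called there changed when either recombined array was left out.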
